A study of Mus musculus with 278 samples.

Results

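Oxidative phosphorylation genes of the nucleus were followed in single cells from cultures of mouse keratinocytes, the cells that build the epidermis. Many of the cells held more collagen than Krt5 and Krt14 transcripts, as described below. The set was taken by symbol from the deposited table: every gene whose name begins Ndufa, Ndufb, Ndufc, Ndufs, Ndufv, Uqcr, Cox4i, Cox5, Cox6, Cox7, Cox8 or Atp5, together with Sdha, Sdhb, Sdhc, Sdhd and Cycs, and without the Ndufaf assembly factors. The rule found 79 of the 14145 genes listed. Complex I held 33 of them, complex II 4, complex III 8, complex IV 16 and complex V 17, and the last was cytochrome c. Ndufa4 and Ndufa4l2 were placed in complex IV, where the Ndufa4 protein is known to sit. Atp5s and Atp5sl were counted in complex V by symbol alone, which does not show that their products are subunits of it.

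The respiratory chain of the inner mitochondrial membrane passes electrons from NADH (complex I) and succinate (complex II) through complex III and the mobile carrier cytochrome c to oxygen at complex IV. Complexes I, III and IV pump protons, and complex V, the ATP synthase, lets them flow back to make ATP. Some core subunits of complexes I, III, IV and V are encoded by the mitochondrial genome, and nuclear genes such as those studied here supply the rest, many of them small accessory proteins. Epidermal keratinocytes combine this pathway with active glycolysis.

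Wild type and K14ΔNβ-cateninER keratinocytes from adult dorsal mouse skin were grown together at 9 parts to 1 part in FAD medium with serum and the HICE cocktail. The transgene puts a stabilised β-catenin fused to an oestrogen receptor domain under the keratin 14 promoter, which is active in basal keratinocytes, so that 4-hydroxytamoxifen (4OHT) switches it on in the minority cells. Treated cultures received 200 nM 4OHT for 24 hours and untreated cultures received DMSO, and single cells were captured on C1 chips. The study identified the transgenic cells by reads aligned to the transgene and removed them from its own analysis. The labels used here do not mark those cells. Wild type and transgenic cells could therefore not be told apart here, and any group may hold both. Library names fell into 2 series, called AG and GHA501A as in the labels, each with both treatments: 66 AG untreated, 64 AG treated, 71 GHA501A untreated and 69 GHA501A treated cells. These 4 sets of cells were the units of every test, with 2 sets per series and 2 per treatment. The labels name no separate cultures, so the p-values measure only the spread between these sets, which may be technical. In the series test the 2 sets of a series differ in treatment, so that spread also holds any change with treatment. The cells were not replicates.

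Levels are TPM, transcript levels scaled to gene length and to a total per cell, which was 1000000 at the median. They can thus be compared between genes, but the depth of a cell is unknown. A cell had, at the median of its set, 6008 to 6392 genes above 1 TPM. The GHA501A series stood apart from its label: the summed Krt5 and Krt14 level exceeded that of the collagen genes Col1a1, Col1a2 and Col3a1 in all 130 AG cells, but in 9 of 71 untreated and 13 of 69 treated GHA501A cells, with 1 cell within 2-fold of the cut. Of 16 keratinocyte markers 15 were listed, with summed means of 32474 and 34932 TPM in AG and 2931 and 5744 in GHA501A. Of the 15, 13 were higher in both AG sets, Krt10 overlapped, and Itgb4 went the other way, at 0 in both AG sets and 0.843 and 5.18 TPM in GHA501A. Of 14 fibroblast markers 10 were listed, with 87.1 and 42.9 TPM in AG and 2148 and 2573 in GHA501A, each of the 10 higher in both GHA501A sets. Summed levels of the listed markers of other cells, in the order AG untreated, AG treated, GHA501A untreated and GHA501A treated, were 76.3, 50.1, 17.0 and 34.8 TPM for melanocytes (3 of 6 listed), and 147, 98.3, 388 and 1079 for immune cells, where Lyz2 was the 1 of 6 listed. They were 60.8, 67.2, 0.866 and 0.653 for skeletal muscle (3 of 5) and at most 0.456 for endothelium (3 of 5). The part of cell type in the series differences was not tested, but the difference of each called member is also given for the keratin-dominant cells alone.

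Known control sequences of this gene class gave context to the members the results turn on. In RefSeq windows of GRCm38.p6 running from 250 bases before to 50 bases after each gene start, 64 of the 79 members matched by symbol, with 69 windows. The NRF1 motif GCGCATGCG was found, on either strand, in 13.04% of the member windows against 1.75% of all 32851 windows. The ETS/GABP motif CCGGAAG was in 23.2% against 8.86%, the YY1 motif AAGATGGC in 11.6% against 2.75%, and the CREB motif TGACGTCA in 7.25% against 1.79%. The motifs were fixed by textbook knowledge and matches of different motifs overlapped in 0 cases, where a match is a description, not a binding site. The 150 bases before the start are shown, 5′ to 3′ on the gene's minus strand with any of these motifs in capitals, for the 3 members that were all but missing from AG, for a paralogue of one of them, and for a pair of members that differed in opposite directions and carry the NRF1 motif. They were chosen after their values were seen. The starts are those of RefSeq, and some lie inside the gene spans of GENCODE M21. The bases shown for Cox7a2l and Atp5g2 fall wholly within those spans. Those for Atp5g1, Ndufa8 and the second start of Atp5c1 fall partly within them.
Atp5c1, first listed start (chr2:10080511-10080660): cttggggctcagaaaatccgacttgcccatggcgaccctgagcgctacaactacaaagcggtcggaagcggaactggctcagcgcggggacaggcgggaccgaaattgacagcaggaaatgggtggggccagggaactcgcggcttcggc
Atp5c1, second listed start (chr2:10080433-10080582): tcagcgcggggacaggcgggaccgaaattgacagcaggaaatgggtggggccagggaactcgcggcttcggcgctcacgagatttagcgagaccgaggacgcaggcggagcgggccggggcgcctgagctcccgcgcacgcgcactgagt
Cox7a2l (chr17:83514334-83514483): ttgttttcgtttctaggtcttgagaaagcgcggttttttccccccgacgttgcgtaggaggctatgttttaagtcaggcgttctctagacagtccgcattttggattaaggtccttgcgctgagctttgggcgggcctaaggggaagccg
Atp5g1 (chr11:96075632-96075781): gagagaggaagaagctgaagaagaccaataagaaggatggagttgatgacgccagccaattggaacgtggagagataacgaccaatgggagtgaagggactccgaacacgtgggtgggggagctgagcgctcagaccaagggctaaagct
Atp5g2 (chr15:102671048-102671197): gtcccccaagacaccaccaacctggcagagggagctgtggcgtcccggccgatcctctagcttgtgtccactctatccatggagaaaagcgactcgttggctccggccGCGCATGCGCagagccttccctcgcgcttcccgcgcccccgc
Cycs (chr6:50566570-50566719): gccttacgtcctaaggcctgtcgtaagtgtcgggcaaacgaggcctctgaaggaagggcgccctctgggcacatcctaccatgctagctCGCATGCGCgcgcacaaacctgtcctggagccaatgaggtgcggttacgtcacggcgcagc
Ndufa8 (chr2:36049339-36049488): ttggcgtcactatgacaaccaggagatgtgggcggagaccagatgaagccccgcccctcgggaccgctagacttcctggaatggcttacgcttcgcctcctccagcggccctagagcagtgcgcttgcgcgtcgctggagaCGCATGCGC
The NRF1 match of Cycs begins 61 bases before the start and that of Ndufa8 9 bases before it, while overlapping matches on both strands begin 42 and 41 bases before the start of Atp5g2. The 4 windows of Atp5c1, Cox7a2l and Atp5g1 hold none of the letters searched, from which nothing follows about the factors.

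Together the members made up a few percent of the transcripts of a cell, and slightly less in AG than in GHA501A. Their summed level averaged 27815 TPM in AG untreated, 31206 in AG treated, 35420 in GHA501A untreated and 34559 in GHA501A treated cells, or 2.78%, 3.12%, 3.54% and 3.46% of all TPM. Single cells overlapped widely: the lowest, median and highest sums were 6607, 30375 and 42307 in AG untreated, 4903, 32886 and 44948 in AG treated, 11454, 34716 and 61772 in GHA501A untreated, and 14417, 35060 and 49812 in GHA501A treated cells. Both AG means lay below both GHA501A means. The log2 ratio of AG to GHA501A was -0.35 in untreated and -0.15 in treated cells, -0.25 ± 0.14 over both (SD, n = 2 pairs of sets). With 2 sets a side an exact permutation test cannot fall below p = 0.333, so none is given.

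On the log2 scale of the summed levels, AG minus GHA501A was -0.40 ± 0.17 for complex I, -0.16 ± 0.16 for complex II, -0.30 ± 0.25 for complex III, -0.22 ± 0.07 for complex IV and 0.01 ± 0.12 for complex V (SD, n = 2 pairs). Cytochrome c stood on the other side at 1.02 ± 0.18. The mean complex I sum was 9846 and 11406 TPM in the AG sets and 14178 and 13866 TPM in the GHA501A sets, so the series did not overlap as sets. Complex V, in contrast, averaged 4394 and 5115 TPM in AG and 4629 and 4774 TPM in GHA501A, and the ranges crossed. An alternative chosen after seeing the data left out the members listed in 1 series (Atp5c1 in complex V and Cox7a2l in complex IV). It put complex V at 0.16 ± 0.11 and complex IV at -0.20 (n = 2 pairs). Over keratin-dominant cells AG minus GHA501A was -0.29 ± 0.16 for complex I, -0.09 ± 0.67 for complex II and -0.44 ± 0.29 for complex III. It was -0.48 ± 0.07 for complex IV, -0.06 ± 0.23 for complex V and 0.61 ± 0.29 for cytochrome c (SD, n = 2 pairs). Complex II then had opposite signs in untreated (-0.56) and treated (0.38) cells. The order of the complexes thus changed with the cells used.

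**Figure D1:**
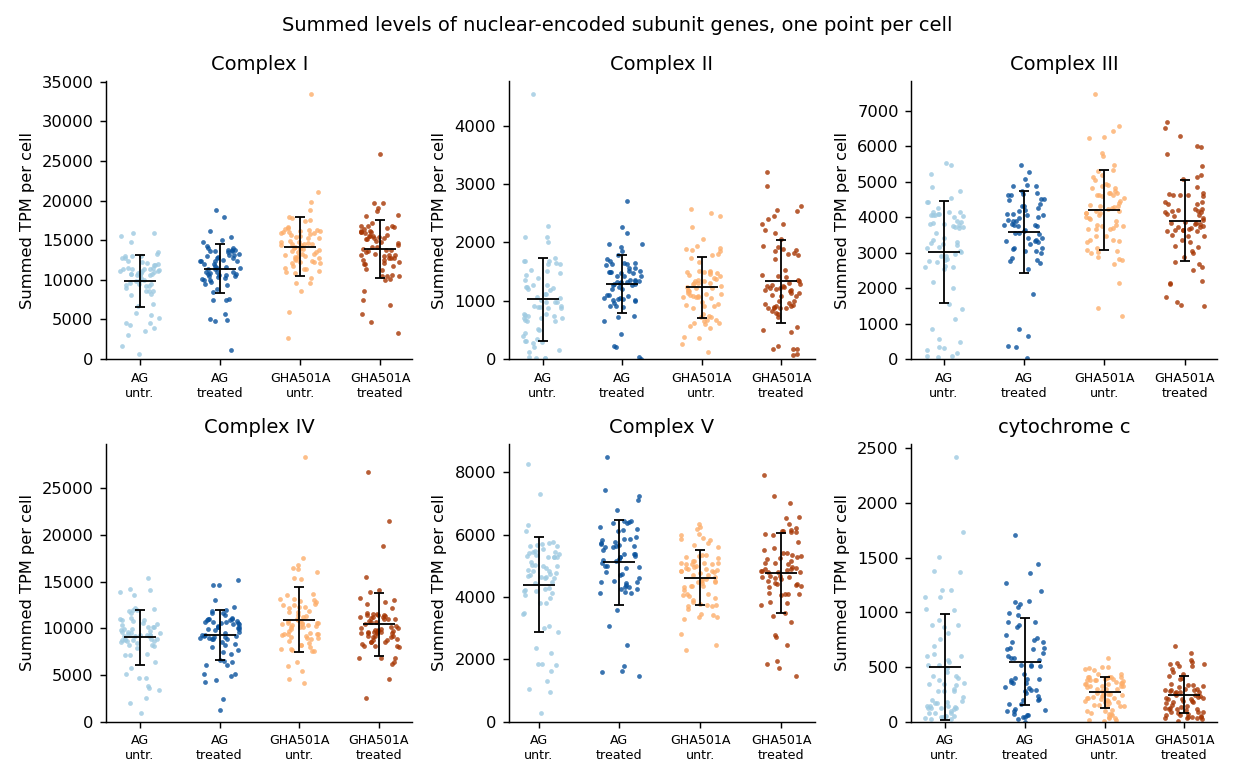
Summed TPM of the members of each complex per cell (vertical axis) in the 4 sets, untreated (untr.) and treated cells of the AG and GHA501A series (horizontal axis), with the mean as a bar and the SD over cells as whiskers. The cells of all sets overlap in every panel, and the mean of complex I is lower in both AG sets (9846 and 11406) than in both GHA501A sets (14178 and 13866), while that of cytochrome c is higher.

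Gene by gene, 77 of the 79 members passed the filter of TPM over 1 in more than 5 cells. The other two were Cox4i2 and Cox7b2, isoforms of complex IV subunits known from other tissues. In a limma fit over the 4 sets and all 12355 genes tested, 11 members were lower in AG and 2 higher at an adjusted p under 0.05 and a log2 difference over 0.5. This is 14.3% and 2.6% of the members, against 20.5% and 13.3% of all genes tested, so the members were not called more often than other genes. The direction leaned to one side: 54 of 77 members (70.1%) had a lower value in AG, against 50.6% of all genes, with a median log2 difference of -0.23 against -0.01. Both AG sets lay below both GHA501A sets for 41 members (53.2%, against 36.7% of all genes) and above them for 11 (14.3%, against 32.9%).

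The members called lower were 7 of 33 in complex I, 2 of 14 tested in complex IV and 2 of 17 in complex V. None of the 4 in complex II or the 8 in complex III was called. An unadjusted limma p under 0.05 was found for 1 member of complex II and 2 of complex III. It was found for 22 of all 77 members and for 5539 of the 12355 genes tested, which is a larger share. The members called higher were 1 in complex V and cytochrome c.

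**Figure D2:**
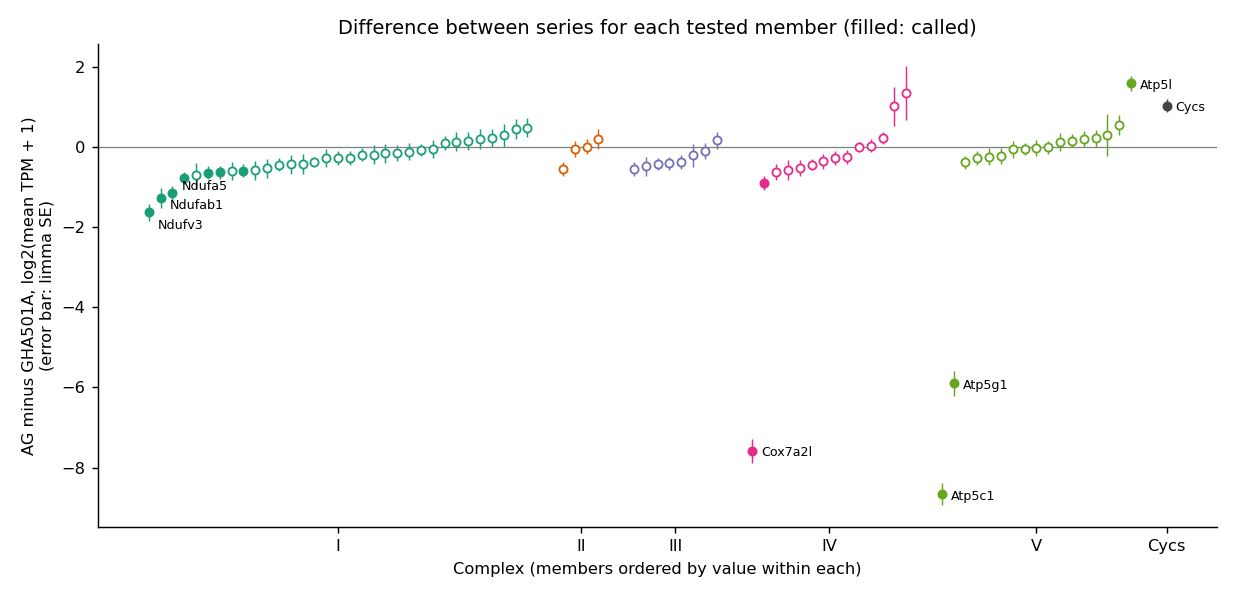
AG minus GHA501A on the log2(mean TPM + 1) scale for each tested member (points, filled where called by limma), ordered by value within its complex, with the limma standard error. Most points lie between -1 and 1, and Atp5c1 (-8.66), Cox7a2l (-7.58) and Atp5g1 (-5.90) lie far below.

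A group of 3 members was all but missing from AG. Atp5c1 encodes the gamma subunit, the central shaft of the ATP synthase, and lies on the minus strand of chr2:10056016-10080510 (GRCm38, GENCODE M21). Its TPM was over 1 in 2 of 66 and 4 of 64 AG cells, with highest values of 6.02 and 3.69 and a median of 0, and in every GHA501A cell, with lowest, median and highest values of 12.4, 467 and 1063 TPM in untreated and 5.45, 445 and 1173 TPM in treated cells. The means of the sets were 0.125, 0.169, 476 and 449 TPM. The sets of the 2 series did not overlap, although the lowest GHA501A cell lay below the highest AG cell. The log2 difference was -8.66 ± 0.27 (limma SE, adjusted p = 0.000534).

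Cox7a2l (chr17:83501918-83517330), known for joining complexes III and IV in supercomplexes, showed the same pattern. Its TPM was over 1 in 1 of 66 and 2 of 64 AG cells, where it did not exceed 2.97, and in 70 of 71 and 69 of 69 GHA501A cells, with means of 195 and 202 TPM. The difference was -7.58 ± 0.30 (limma SE, adjusted p = 0.000665). Atp5g1 (chr11:96068852-96075670) is 1 of 3 genes for subunit c, the proton-carrying ring of the ATP synthase. It was over 1 TPM in 13 of 66 and 16 of 64 AG cells, at most at 3.48, and in every GHA501A cell, from 11.7 upwards, so that here the cells did not overlap at all. Its set means were 0.562, 0.601, 87.7 and 99.5 TPM and the difference was -5.90 ± 0.32 (limma SE, adjusted p = 0.000903). As AG values were near 0, the size of these 3 differences depends on the pseudocount of 1: with 0.1 they were larger, at -10.88 for Atp5c1.

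The 3 genes were also present in the GHA501A cells with more keratin than collagen. In the keratin-dominant GHA501A cells (9 untreated, 13 treated), Atp5c1 averaged 414 and 375 TPM, Cox7a2l 228.7 and 129.2, and Atp5g1 83.4 and 107.7, and each of the 3 was over 1 TPM in all 22 of them. The limma differences over keratin-dominant cells were -8.43, -7.37 and -5.92, with adjusted p of 0.00771, 0.0117 and 0.0119. Genes listed in a single series in this way were not rare: taking genes over 1 TPM in under 10% of the cells of both sets of a series and in over 50% of both sets of the other, 4.403% of the genes tested were found in GHA501A and 0.915% in AG, a definition made after the values were seen. Atp5c1 and Cox7a2l met it and Atp5g1 did not. Whether the tables of the 2 series were made alike was not tested, and series and processing cannot be told apart.

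**Figure D3:**
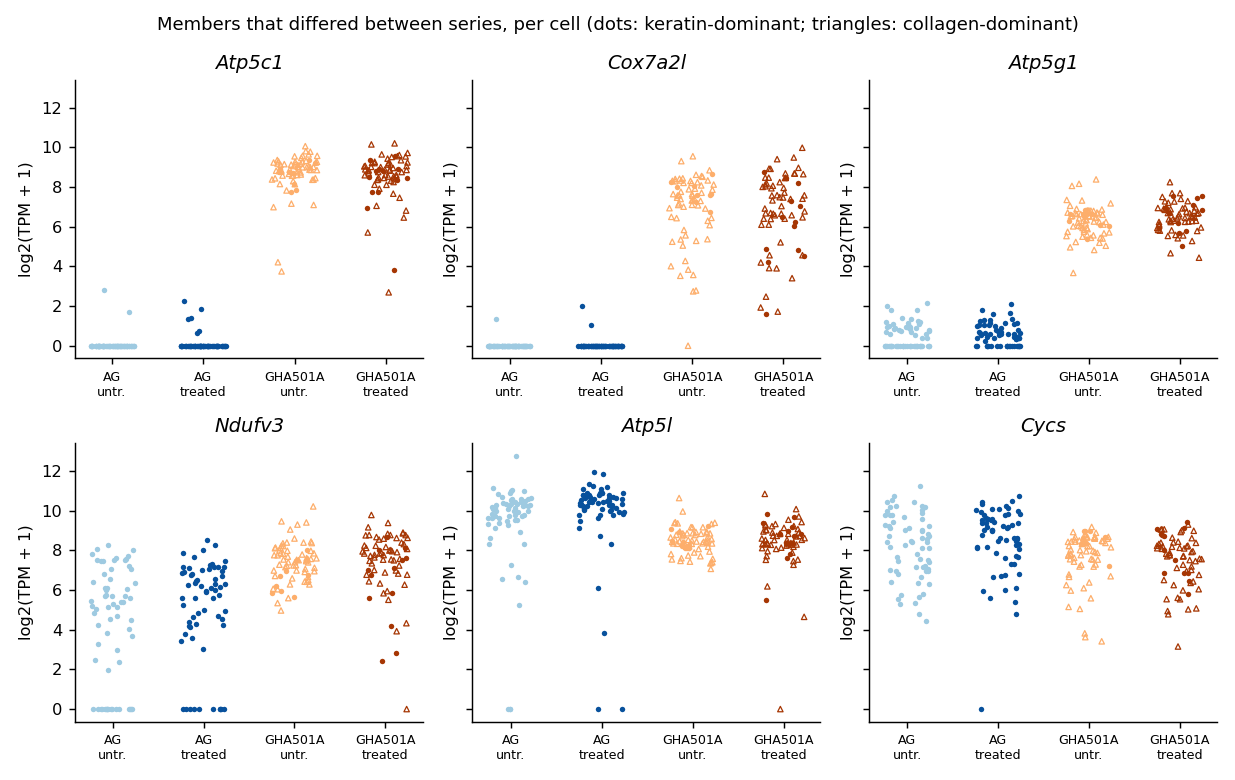
Level per cell, log2(TPM + 1) on the vertical axis, of 6 members that differed between series in the 4 sets, with keratin-dominant cells as dots and collagen-dominant cells as open triangles. Atp5c1, Cox7a2l and Atp5g1 are near 0 in AG and well above it in both kinds of GHA501A cells, whereas Ndufv3, Atp5l and Cycs overlap between series.

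The paralogues of Atp5g1 and Cox7a2l showed no such gap. Atp5g2 and Atp5g3, the other genes for subunit c, averaged 273, 329, 240 and 289 TPM and 296, 308, 315 and 314 TPM in the 4 sets, with differences of 0.19 and -0.06 that did not pass the test (limma adjusted p = 0.517 and 0.806). Atp5g1 made up 13.7% and 14.2% of the summed level of the 3 genes in GHA501A and 0.0986% and 0.0943% in AG. Cox7a2, the usual 7a subunit of complex IV, was at 594 and 748 TPM in AG and 1045 and 882 TPM in GHA501A (difference -0.53, limma adjusted p = 0.101), and Cox7a2l made up 15.6% and 18.6% of the Cox7a group in GHA501A. Cox7a1, the isoform of heart and muscle, was over 1 TPM in 8.70% to 23.4% of the cells of a set and had set means between 1.16 and 11.5 TPM. Cox4i1 supplied 99.1% to 100% of the summed level of Cox4i1 and Cox4i2, and Cox7b 99.7% to 100% of that of Cox7b and Cox7b2, in the sets.

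In complex I the called members were accessory subunits. Ndufv3, of the NADH-binding module, averaged 65.2 and 78.0 TPM in AG and 213 and 235 TPM in GHA501A and differed by -1.64 ± 0.20 (limma SE, adjusted p = 0.00444). Its cells overlapped, with medians of 34.9, 62.6, 180 and 215 TPM. In keratin-dominant GHA501A cells Ndufv3 averaged 112.9 and 139.8 TPM, and the difference fell to -0.81 and was no longer called (limma adjusted p = 0.15). Ndufab1, the mitochondrial acyl carrier protein, averaged 30.6 and 25.4 TPM in AG and 75.25 and 63.02 TPM in GHA501A (-1.27 ± 0.25, limma adjusted p = 0.0187), and the call held in keratin-dominant cells (-1.57, limma adjusted p = 0.0415). Ndufa5 averaged 110.3 and 128.3 TPM in AG and 270 and 264 TPM in GHA501A (-1.16 ± 0.18, limma adjusted p = 0.00951), a difference of -0.79 in keratin-dominant cells (limma adjusted p = 0.181).

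The remaining 4 were more abundant and differed less. Ndufa1 was at 678, 781, 1272 and 1219 TPM, Ndufa8 at 526, 612, 874 and 910 TPM, Ndufa2 at 675, 799, 1146 and 1143 TPM and Ndufa7 at 218, 232, 339 and 342 TPM in the order of the sets above. Their differences ran from -0.77 (Ndufa1) to -0.60 (Ndufa7), and in each gene both AG sets were lower. In keratin-dominant cells the differences of these 4 were -0.42, -0.84, -0.12 and -0.57, and none was called. Ndufa7 also lost its call with treatment as a replicate block (limma adjusted p = 0.0752) and in cells with at least 4000 genes. With rescaled means Ndufa2, Ndufa7 and Ndufa8 lost their calls (limma adjusted p = 0.0635, 0.06 and 0.0563). Without the variance trend all 4 lost theirs. Ndufa2 also lost its call when the 8 AG cells with conflicting labels were added by treatment label. With any 1 of the 4 sets left out, Ndufa1, Ndufa8, Ndufa2, Ndufa7 and Ndufab1 kept their direction and lost their call (Ndufab1, limma adjusted p = 0.0688 to 0.12). Ndufv3 was called in 3 of these 4 fits and Ndufa5 in 2 of them, the calls being lost for Ndufv3 without GHA501A treated (limma adjusted p = 0.0528) and for Ndufa5 without GHA501A untreated or GHA501A treated (limma adjusted p = 0.0823 and 0.0764). The most abundant members of complex I, Ndufb9 and Ndufa6, did not pass the test: Ndufb9 averaged 2118, 2079, 2799 and 2677 TPM (-0.38, limma adjusted p = 0.0841) and Ndufa6 1124, 1371, 1364 and 1489 TPM (-0.20, limma adjusted p = 0.411). Across complex I, 25 of 33 members had lower values in AG, with a median of -0.28.

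Complex II has 4 subunits. Sdhb, the iron-sulphur subunit, averaged 243, 285, 400 and 374 TPM (-0.55, limma adjusted p = 0.0703), and Sdha, the flavoprotein that oxidises succinate, 115.5, 168.005, 124.1 and 118.2 TPM (0.20, limma adjusted p = 0.573). The membrane anchors Sdhc and Sdhd averaged 132.2, 148.4, 134.6 and 145.3 TPM and 531, 689, 573 and 692 TPM, with differences of 0.00 and -0.06. None was called, and 2 of the 4 were lower in AG. In complex III, 7 of 8 members had lower values in AG (median -0.40) and none was called. Its most abundant members were Uqcrb, at 788, 1047, 1051 and 917 TPM (-0.11), and Uqcr11, at 678, 770, 995 and 948 TPM (-0.43, limma adjusted p = 0.0966).

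Complex IV held the most abundant member of the whole set, Cox6a1, which was level across the series at 4438, 4335, 4330 and 4487 TPM (difference -0.01, limma adjusted p = 0.971). Within complex IV the second, Cox8a, averaged 1058, 1019, 1471 and 1355 TPM (-0.44, limma adjusted p = 0.0718). Ndufa4 was called lower in AG, at 323 and 391 TPM against 703 and 633 TPM (-0.91 ± 0.18, limma adjusted p = 0.019), and by -1.42 in keratin-dominant cells (limma adjusted p = 0.0236). Ndufa4 lost its call with any of the 4 sets left out (limma adjusted p = 0.0543 to 0.133) and without the variance trend (limma adjusted p = 0.0615). Its paralogue Ndufa4l2, known as a gene that rises in hypoxia, took 29.3% and 45.2% of the pair's summed level in AG and 10.4% and 17.0% in GHA501A. The difference of Ndufa4l2, 1.01, was not called (limma adjusted p = 0.183), but was called higher in AG with treatment as a replicate block (limma adjusted p = 0.032). Cox4i1, Cox6b1, Cox6c and Cox7b had differences of 0.23, 0.02, -0.63 and -0.28, none of them called.

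In complex V, Atp5l, for subunit g of the membrane part (chr9:44912557-44920742), went the other way. It averaged 1093 and 1386 TPM in AG and 396 and 426 TPM in GHA501A, a difference of 1.58 ± 0.18 (limma SE, adjusted p = 0.00367). Its medians were 1026 and 1348 TPM in AG against 347 and 369 TPM, with single cells overlapping, and the difference was 1.55 in keratin-dominant cells (limma adjusted p = 0.023). The call of Atp5l held in 3 of the 4 fits with a set left out, and was lost without GHA501A untreated (limma adjusted p = 0.0512). Atp5b, the catalytic beta subunit, averaged 574, 580, 708 and 809 TPM (-0.39, limma adjusted p = 0.121).

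Cycs (chr6:50562563-50566538), for the electron carrier cytochrome c, which also triggers caspases when it leaves the mitochondrion, was higher in AG. The sets averaged 500, 547, 269 and 247 TPM, with medians of 344, 511, 284 and 218, and the difference was 1.02 ± 0.16 (limma SE, adjusted p = 0.00992). The AG cells ranged more widely, up to 2421 TPM in untreated cells against 578 in GHA501A untreated cells. Keratin-dominant GHA501A cells had more Cycs (379 and 311 TPM) than collagen-dominant ones (253 and 232 TPM). Over keratin-dominant cells the difference between series was 0.61 and not called (limma adjusted p = 0.166). With the mean of log2 values it was 0.73 and not called (limma adjusted p = 0.0654). With any of the 4 sets left out the call of Cycs was lost (0.95 to 1.08, limma adjusted p = 0.0513 to 0.0833).

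Within GHA501A the 2 classes of cell carried like totals, 37761 and 35635 TPM in keratin-dominant and 35080 and 34309 TPM in collagen-dominant cells. Of the 77 members, 25 were higher in keratin-dominant cells in both treatments and 24 lower in both. This is 32.5% and 31.2% of the members, against 22.4% and 34.5% of all 12355 genes tested.

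Other genes of the pathway were taken from lists of known function, and their counts are read against the 20.5% of all genes called lower and the 13.3% called higher. Of the 12 list genes called, 3 were also called over the keratin-dominant cells. Of 14 tested assembly factors of complex I, 4 were called lower in AG and none higher (Ndufaf5, at 17.3 and 15.5 against 42.4 and 51.2 TPM, differed by -1.45, and Tmem126b by -1.39). In keratin-dominant cells these were -0.27 and -0.16, and neither was called. Among 28 assembly factors of complexes II to V, 2 were lower and 3 higher. Ttc19, an assembly factor of complex III, was at 0.0585 and 0.0471 TPM in AG and 28.91 and 28.95 TPM in GHA501A, and Cox17, a copper chaperone for complex IV, was higher in AG (48.6 and 51.1 against 4.23 and 7.95 TPM, 2.90 on the log2 scale). Both were called over keratin-dominant cells, at -4.55 for Ttc19 and 2.88 for Cox17 (limma adjusted p = 0.0301 and 0.0229). None of 12 genes of the tricarboxylic acid cycle was called, the largest differences being those of Fh1 (-0.69) and Mdh2 (-0.52). Among 12 regulators of mitochondrial genes 1 was lower and 1 higher: Nrf1, whose product binds the NRF1 motif, was at 0.0245 and 0.0577 TPM in AG and 7.60 and 5.65 TPM in GHA501A, and Tfb1m was higher in AG (1.08). Over keratin-dominant cells Nrf1 was called at -2.63 (limma adjusted p = 0.0184), and Tfb1m was at 0.36 and not called. Nrf1 was over 1 TPM in 1.5% and 3.1% of AG cells and in 50.7% and 43.5% of GHA501A cells. For Ttc19 the shares were 3.0% and 1.6% in AG and 83.1% and 79.7% in GHA501A. Ttc19 thus met the definition of a gene listed in 1 series given above, and Nrf1 did not. For both, as for Atp5c1, series and processing cannot be told apart. Of 7 carriers and coupling genes Slc25a5, an ADP/ATP carrier, was higher in AG, at 1727 and 2463 against 901 and 999 TPM (1.12, and 0.58 and not called in keratin-dominant cells), and Slc25a3, the phosphate carrier, did not pass the test (0.61). All calls are those of limma over 12355 genes. None of the 13 genes of the mitochondrial genome was among the rows analysed here.

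The second question of the design was whether these genes differed with 4OHT, which switches on the transgene of the minority cells. No set held cells treated without transgenic neighbours, so a direct effect of 4OHT cannot be told apart from one through those cells. No member was called in either direction in the limma fit with series as a block, as was the case for 0.0% of the genes tested. At an unadjusted p under 0.05 there were 2 members (486 of the 12355 genes), and the alternative fits likewise called 0 members. These were Ndufa4l2 and Cox5a. Ndufa4l2 averaged 133.7 TPM in untreated and 322 TPM in treated AG cells, and 81.5 and 130 TPM in GHA501A, an average log2 change of 0.97 ± 0.26 (limma SE, adjusted p = 0.998). It was over 1 TPM in 31.8% and 53.1% of AG cells and in 40.85% and 42.03% of GHA501A cells, so in GHA501A its median stayed at 0. Cox5a, a subunit of complex IV, had lower values in treated cells of both series, 526 against 716 TPM in AG and 785 against 1060 TPM in GHA501A (-0.44 ± 0.18, limma adjusted p = 0.998).

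In AG 64 of 77 members (83.1%) had a higher mean in treated cells, against 43.5% of all genes, with a median log2 change of 0.23. In GHA501A 33 members (42.9%) did, against 54.9% of all genes, with a median of -0.03. In both series 28 members were higher and 8 lower, which is 36.4% and 10.4% of the members against 23.5% and 23.8% of all genes. For the summed level of all members the change was 0.17 in AG and -0.04 in GHA501A, and in AG it was 0.21 for complex I, 0.34 for complex II, 0.24 for complex III, 0.04 for complex IV, 0.22 for complex V and 0.13 for cytochrome c. In GHA501A the values in the same order were -0.03, 0.11, -0.11, -0.06, 0.04 and -0.12, so that complexes II and V were higher in treated cells of both series.

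**Figure D4:**
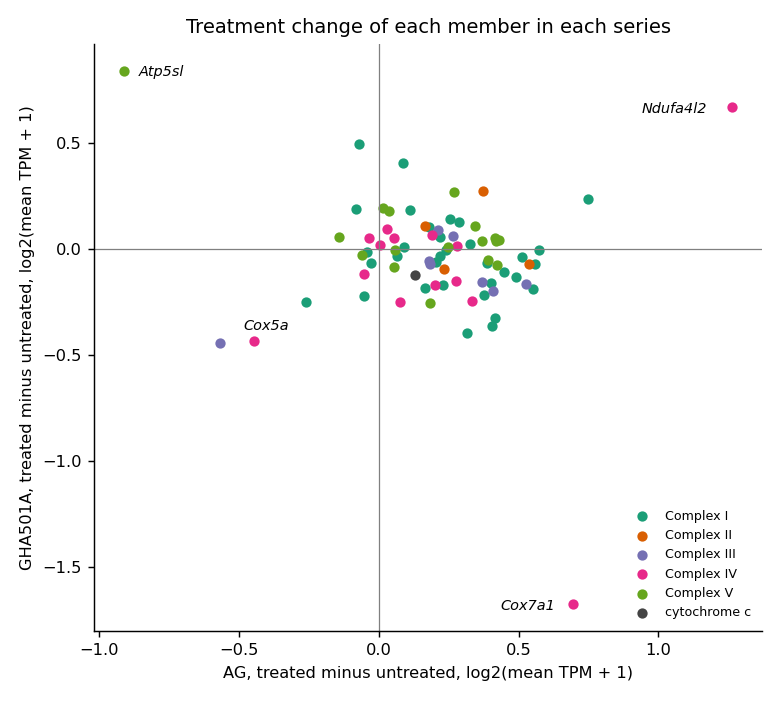
Treated minus untreated, on the log2(mean TPM + 1) scale, in AG (horizontal axis) and GHA501A (vertical axis) for each of the 77 tested members, coloured by complex. 64 points lie to the right of the vertical line and 33 above the horizontal line, and Ndufa4l2 is high on both axes.

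The AG change moved with the number of genes detected per cell. Cells of a set were split into 3 parts by the number of genes detected. In the lower part of AG, the members summed to 20915 TPM in untreated and 27957 TPM in treated cells. In the upper part the sums were 31587 and 31660 TPM, and in the middle part 30942 and 33872 TPM, so that the gap was widest among the cells with few genes. Over the cells of a set the Spearman correlation of the summed level with the number of genes was 0.51 in AG untreated (n = 66), 0.11 in AG treated (n = 64), -0.19 in GHA501A untreated (n = 71) and -0.24 in GHA501A treated cells (n = 69), both measures coming from the same libraries. The part of library quality in the AG change was not tested further. From cell to cell, the Spearman correlation of the summed level of complex I with those of complexes III, IV and V was 0.28 to 0.58 over the sets, and with that of complex II 0.15 to 0.43. That of complexes II and IV ran from -0.0038 to 0.32 and that of complex I and cytochrome c from -0.093 to 0.34, where all sums share the scaling of the cell.

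The spread between cells, as the coefficient of variation (SD over mean, CV), was compared for the 72 members with a mean over 10 TPM in every set. In AG, 64 of them (88.9%) had a lower CV in treated cells, against 75.7% of 4774 genes passing the same minimum, and the median CV went from 0.768 to 0.561. In GHA501A 20 of them (27.8%) did, against 31.4% of genes, and the median went from 0.592 to 0.662. The members therefore leaned the way the other genes did in each series, and no test was made. The steadiest members were Cox6c, Cox8a and Cox7a2 of complex IV, with median CV over the sets of 0.456, 0.461 and 0.488. The most variable were Ndufb2 (1.30), Atp5s (1.61) and Ndufa4l2 (2.48).

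**Figure D5:**
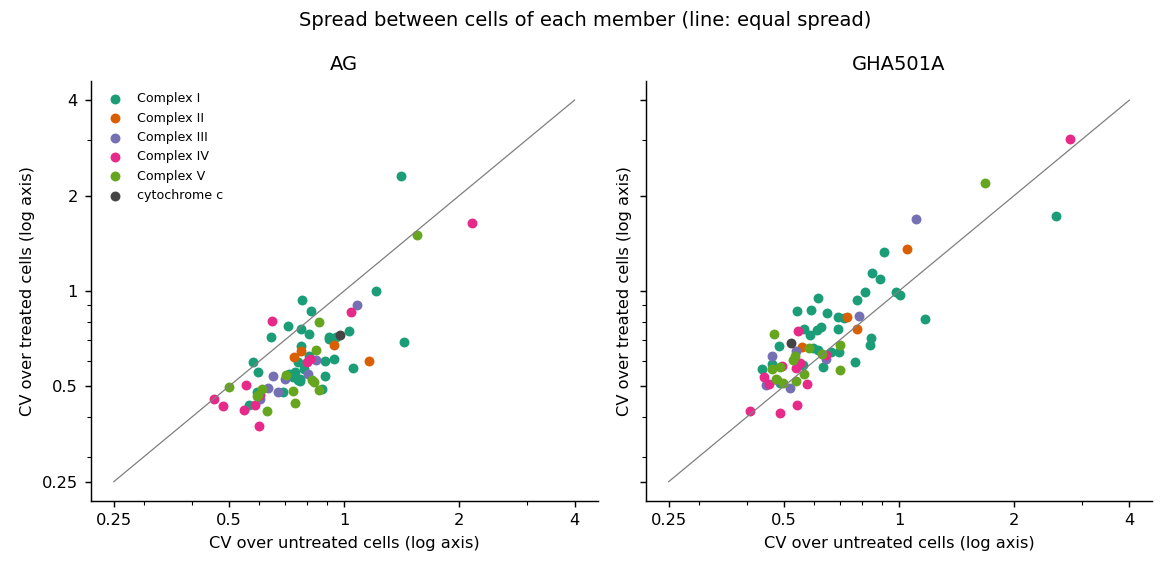
CV over treated cells (vertical axis) against CV over untreated cells (horizontal axis, both on log scales) for the 72 members with mean TPM over 10 in every set, in AG (left) and GHA501A (right), with a line of equal spread. In AG 64 members lie below the line and in GHA501A 20.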

How the data were processed

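Single-cell RNA-seq libraries of cells from the keratinocyte co-cultures were made on C1 chips with the SMART-Seq v4 and Nextera XT kits and sequenced on a HiSeq4000. According to the methods and the submitters' processing notes, reads were checked with FastQC, trimmed with cutadapt, aligned to GRCm38 with TopHat and counted with featureCounts. Multiply-mapped reads were discarded, which can lower genes with near-identical copies, such as the many processed pseudogenes of this gene class. The deposited values are TPM made by the authors from those counts, with a median total of 1000000 over the 278 labelled cells. The depth of a cell, and the precision of a low value, are therefore unknown. A further 16 columns matched no label and were not used, and 8 AG cells whose name prefix and treatment label disagree were left out, which gave 270 cells in 4 sets.

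The TPM of the cells of a set were averaged, a pseudocount of 1 was added and log2 was taken, so that fold changes of low genes are understated. The 12355 genes that exceeded 1 TPM in more than 5 cells entered fits in limma 3.58.1 (R 4.3.3, moderated test with trend, two-sided, Benjamini-Hochberg adjustment over all genes tested), AG against GHA501A over all 4 sets and treated against untreated with series as a block. A gene was called at an adjusted p-value under 0.05 and an absolute log2 difference over 0.5. Complex sums, spread and correlations are descriptions. The fits were first tested on simulated data.

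Named are the called members (up to 6 of largest difference per direction and complex, Ndufa7 being added after its values were seen), the 2 most abundant of each complex, the paralogues, Sdha to Sdhd, Cycs, and the 3 steadiest and 3 most variable members. Cox5a was named after its values were seen. Of other lists the 2 members of largest difference are named. The members and lists were chosen with earlier results of these data known. Alternatives were a pseudocount of 0.1, other filters, the mean of log2 values, rescaled means, limma without trend, the replicate block, other choices of cells, and each set left out in turn. Leaving out genes or members listed in 1 series was added after seeing the data. Python 3.11.15, pandas 2.3.3 and matplotlib 3.10.9 were used, with gene positions from GENCODE M21 and promoters from RefSeq (GRCm38.p6).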

Additional observations from a re-analysis of the deposited data

Results flagged for a closer look

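The summed level of all members, of complexes I, III and IV and of cytochrome c was higher in treated cells of AG and lower in treated cells of GHA501A, which flagged these results. Treated minus untreated on the log2 scale was 0.17 in AG and -0.04 in GHA501A for all members. It was 0.21 and -0.03 for complex I, 0.24 and -0.11 for complex III, 0.04 and -0.06 for complex IV, and 0.13 and -0.12 for cytochrome c. Complexes II (0.34 and 0.11) and V (0.22 and 0.04) were higher in treated cells of both series. The difference between the series was not tested, as each series has 1 set per treatment. No set-level group has 4 or more samples, so none was examined for a sample far from the others.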

How the results depend on the processing

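No alternative changed the direction of a called member by series, but the called members changed. Cycs lost its call over keratin-dominant cells and with the mean of log2 values, and Atp5l kept its call in both. Over keratin-dominant cells Atp5s (2.98, limma adjusted p = 0.0227) and Cox7a1 (2.91, limma adjusted p = 0.0334) became called higher in AG. With the mean of log2 values these were Cox7a1 (0.52, limma adjusted p = 0.032) and Atp5sl (0.70, limma adjusted p = 0.0143). With rescaled means Ndufa2, Ndufa7 and Ndufa8 lost their calls. The count of members called lower in AG (11) was 6 without the variance trend, 5 over keratin-dominant cells, 16 with the mean of log2 values and 3 to 5 with a set left out, and the count called higher (2) was 3 over keratin-dominant cells and with the mean of log2 values, and 0 to 1 with a set left out, when fewer sets estimate the spread. Removing any set, AG untreated, AG treated, GHA501A untreated or GHA501A treated, ended the calls of Cycs, Ndufa1, Ndufa2, Ndufa4, Ndufa7, Ndufa8 and Ndufab1, while Atp5c1, Cox7a2l and Atp5g1 were called each time (limma adjusted p from 0.0123 to 0.0331). With treatment as a replicate block 10 members were lower and 3 higher, as Ndufa7 lost its call (limma adjusted p = 0.0752) and Ndufa4l2 became called (1.01, limma adjusted p = 0.032), and without the block of series 0 members were called for treatment; the pairing of sets is by treatment label only. The change of the summed level with treatment ran from -0.11 to 0.24 with a set left out. Over keratin-dominant cells 6 members (8.33%, against 14.3% of genes) had a lower CV in treated GHA501A cells, against 20 (27.8%, against 31.4% of genes) over all cells. The causes of these shifts were not tested.

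Among the 36 members followed, values that were not called changed sign as follows. AG minus GHA501A became, with the mean of log2 values, -0.18 for Atp5g2, -0.14 for Cox4i1, -0.31 for Cox6b1 and -0.0596 for Sdhc. Over keratin-dominant cells it became -0.29 for Cox4i1, -0.34 for Cox6b1 and 0.0545 for Uqcrb. It became -0.0193 for Cox6b1 and -0.0409 for Sdhc with rescaled means, -0.00127 for Cox6b1 and -0.0224 for Sdhc without genes listed in 1 series, and -0.00353 and -0.00188 for Sdhc with the 8 cells added by label or by prefix. With a set left out the ranges were -0.0327 to 0.0185 for Cox6a1, -0.0711 to 0.12 for Cox6b1, -0.0679 to 0.47 for Sdha, -0.0803 to 0.085 for Sdhc, -0.24 to 0.13 for Sdhd and -0.32 to 0.0924 for Uqcrb.

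Treated minus untreated became, with the mean of log2 values, -0.0636 for Atp5b, -0.19 for Atp5s, -0.0779 for Cox7a2l and 0.0595 for Ndufb2. Over keratin-dominant cells it became -0.0146 for Atp5b, -0.00612 for Cox6a1, -0.0127 for Cox6b1, 0.73 for Cox7a1, -0.38 for Cox7a2l, -0.0376 for Cox7b, -0.0785 for Cycs, -0.19 for Ndufa5, -0.0161 for Ndufa7, 0.64 for Ndufb2, 0.0615 for Ndufb9, -0.17 for Sdha, -0.0607 for Sdhb, -0.0799 for Sdhc, -0.18 for Sdhd and -0.0979 for Uqcrb. It became -0.000871 for Cox6a1 without genes listed in 1 series, -0.0429 for Cycs with the 8 cells added by label, 0.0848 for Atp5c1 with a pseudocount of 0.1, and -0.0622 for Cox7b in cells with at least 4000 genes. With a set left out, when the fit had no block and so the treatments held unequal numbers of sets of each series, the ranges were -0.14 to 0.34 for Atp5b, -4.38 to 4.35 for Atp5c1, -2.88 to 3.09 for Atp5g1, -0.017 to 0.0701 for Atp5g3, -0.62 to 1.07 for Atp5l, -0.13 to 0.60 for Atp5s, -0.0676 to 0.19 for Cox4i1, -0.016 to 0.0335 for Cox6a1, -0.23 to 0.53 for Cox6c, -1.75 to 0.77 for Cox7a1, -0.36 to 0.45 for Cox7a2, -3.74 to 3.84 for Cox7a2l, -0.22 to 0.25 for Cox7b, -0.32 to 0.15 for Cox8a, -0.57 to 0.57 for Cycs, -0.38 to 0.53 for Ndufa1, -0.26 to 0.50 for Ndufa2, -0.50 to 0.62 for Ndufa4, -0.55 to 0.73 for Ndufa5, -0.27 to 0.37 for Ndufa7, -0.23 to 0.50 for Ndufa8, -0.90 to 0.38 for Ndufab1, -0.32 to 0.0485 for Ndufb2, -0.25 to 0.16 for Ndufb9, -0.65 to 1.04 for Ndufv3, -0.0182 to 0.49 for Sdha, -0.29 to 0.43 for Sdhb, -0.22 to 0.33 for Uqcr11 and -0.10 to 0.31 for Uqcrb.

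Depth is not known for these cells, so a TPM of 0 does not show that a gene was silent. Reads of near-identical copies were discarded, and 2 sets a side leave few degrees of freedom.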

Other observations

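In 8 AG cells the name prefix and the treatment label disagree, and these cells entered no main comparison, only the alternatives that added them. The summed level of the members was 21662, 29483 and 33025 TPM (lowest, median and highest) in the 5 cells with an AG1neg name and a treated label, and 29895, 30004 and 35533 TPM in the 3 with an AG2pos name and an untreated label. All 8 were keratin-dominant, and Atp5c1 and Cox7a2l were listed at 0 in each of them.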
